A study of Arabidopsis thaliana with 134 samples.

Results

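A set of 201 of the 28775 Arabidopsis thaliana genes in the deposited table was silent in the accession Tnz-1 and clearly expressed in the accession Ws-2. A gene was taken when its TPM, a transcript abundance scaled for transcript length and library total, was 0.1 or less in both Tnz-1 libraries and 5 or more in both Ws-2 libraries. The 4 parental libraries therefore chose the genes, and parental values are given as a description with no test. No value of a recombinant inbred line (RIL) entered that choice.

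Accessions of a plant species differ in gene content and in regulatory sequence, so that a gene transcribed in the seedlings of one accession can give no detectable transcript in another. RILs are inbred progeny of 2 accessions, and each carries a mosaic of parental segments. Where an on or off state follows the local parental segment, lines fall into separate groups for that gene and neighbouring genes share their states.

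The study measured mRNA in whole 12-day seedlings of Tnz-1, of Ws-2 and of 65 lines labelled WT with a number, read as the RILs, the sole other kind of plant that the series text mentions. Seeds were sown in clusters of about 50 on medium with 3% sucrose, stratified for 4 days and grown at 22 °C under 8 h of light and 16 h of dark. Harvest was at zeitgeber time 10 h, either in the dark after lights-off at 8 h or after 2 h of extended light. Each accession and each line gave 1 dark and 1 light library, 134 in all, so a library pools many seedlings and no parental condition was replicated. Dark and light plants stood in 2 cabinets, so light and cabinet cannot be told apart.

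The depth behind each value is unknown, since TPM carries no read totals, and a value of 0 is given as listed at 0. The green-tissue transcript RBCS1A, which encodes the small subunit of Rubisco, had 24926 TPM (dark) and 26321 TPM (light) in Tnz-1, and 22950 and 22900 TPM in Ws-2. The antenna protein transcript LHCB1.1 had 90.8 and 95.8 TPM in Tnz-1 against 232 and 50.5 TPM in Ws-2, and LHCB2.1 had 2.14 and 14.5 TPM against 0.53 and 0.38 TPM. Root-hair transcripts were present in both accessions, with COBL9 between 1.51 and 3.30 TPM and EXPA7 between 2.71 and 6.87 TPM, while PRP3, a root-hair cell wall protein, was itself among the 201 genes. Seed storage transcripts stood far higher in Tnz-1, as for CRU3 at 6308 and 5622 TPM against 168 and 126 TPM in Ws-2, and their part in the parental difference was not tested. In whole seedlings, fewer cells of a type and less RNA per cell cannot be told apart.

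In Tnz-1, 173 of the 201 genes were listed at 0 in both libraries and 28 had a value above 0 in at least 1 library. In Ws-2 their mean TPM over both libraries ran from 5.41 to 344, with a median of 14.8, and 19 genes reached 50 TPM. They made up 1.53% of the 13127 genes with at least 5 TPM in both Ws-2 libraries. The opposite set, off in Ws-2 and on in Tnz-1 by the same limits, held 100 genes.

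The genes next to the limits show how the choice falls. Just inside the Tnz-1 limit lay AT1G10320, a zinc finger gene, with 0.1 and 0 TPM in Tnz-1, and SOT12, a sulfotransferase that acts on salicylic acid, with the same values. Just outside it lay AT2G20210 and CTC1, a telomere maintenance gene, each with 0.11 and 0 TPM in Tnz-1. At the Ws-2 limit, AT2G27740 (5.03 and 7.65 TPM) and the TIR-type resistance gene AT4G09420 (8.29 and 5.03 TPM) were inside. The cytochrome P450 gene CYP705A8 (5.37 and 4.95 TPM) and AT1G77885 (5.46 and 4.93 TPM) were outside.

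The 8 most abundant of these transcripts in Ws-2 belong to genes of varied roles. AT5G56670, a ribosomal protein S30 gene, was at 282 TPM in the dark and 407 TPM in the light. AT5G59690, a histone gene, was at 183 and 248 TPM. MT1C, a metal-binding metallothionein, was at 117 and 186 TPM. AT2G16005, a lipid recognition domain protein, was at 79.6 and 126 TPM. J11, a chaperone of the DnaJ type, was at 121 and 62.8 TPM. AT1G67350, an NADH-ubiquinone oxidoreductase gene, was at 82.2 and 99.8 TPM. AT1G62480, a vacuolar calcium-binding protein gene, was at 116 and 59.5 TPM, and AT1G51400, a photosystem II 5 kD protein gene, at 121 and 33.7 TPM. In Tnz-1 each of these 8 genes was listed at 0 in both libraries.

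Of the 201 genes, 198 matched the reference annotation. AT5G07842, ATCG00580 and ATCG00820 did not and are given no name or role. Protein-coding genes made up 183 of the 198, and the other 15 (7.58%) were not protein-coding, against 0.614% of the annotated genes on in Ws-2 and 4.64% of all annotated genes in the table. Their transcripts were short, with a median annotated length of 1097 bases against 1772 for genes on in Ws-2 and 1504 for the table. The median number of exons was 2, against 5 and 3, and 27.3% had 1 exon, against 11.5% and 23.1%. These are descriptions of a set chosen by its parental values, and no test was made of them.

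By words in their annotation, 31 genes (15.7%) encode proteins of unknown function, with AT3G22210 and AT1G30880 the most abundant. The share was 7.12% of the annotated genes on in Ws-2 and 11.7% of all annotated genes in the table. Other classes are set beside these backgrounds in the same order. Metabolic enzymes numbered 30 (15.2%, against 17.6% and 15.5%) and were led by AT1G67350 and SOT12. Non-coding RNAs numbered 14 (7.07%, against 0.591% and 2.39%), led by AT1G15405 and MIR834, a microRNA precursor. Genes of the ribosome, translation and RNA handling numbered 12 (6.06%, against 7.26% and 7.78%). They were led by AT5G56670 and AT5G11900, which is annotated as a translation initiation factor of the SUI1 family.

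Smaller classes followed. F-box, ubiquitin and BTB genes numbered 7 (3.54%, against 4.08% and 5.26%), led by the E3 ubiquitin ligase gene AT3G11600 and the F-box gene AT4G03635. Peptides, inhibitors and defence proteins numbered 6 (3.03%, against 1.25% and 2.02%). They were led by AT5G48490, of the lipid-transfer protein family, and INH3, an inhibitor of protein phosphatase. Genes with words for transcription factors or zinc fingers numbered 5 (2.53%, against 4.19% and 4.76%), led by AT5G41960 and ZFP4. These words take in any zinc finger gene, such as AT1G10320. Immune receptors numbered 4 (2.02%, against 0.276% and 0.782%). By words in the annotation none was a transposon, against 0.0845% and 0.303%. The remaining genes were spread over kinases, transporters, organelle proteins and 82 genes (41.4%, against 49.9% and 42.7%) that matched none of the class words. The words miss some roles, since the 82 include NF-YA7, a nuclear factor Y subunit, and LSM8, of the small nuclear ribonucleoprotein family. All these class counts are therefore counts of annotation words, and the number of genes with a given role can differ.

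Some genes chosen after their values were seen show how wide the roles run. PSK2 encodes a precursor of the growth peptide phytosulfokine and PSKR2 a receptor for phytosulfokine. In Ws-2, PSK2 had 9.39 and 8.19 TPM and PSKR2 had 8.82 and 11.7 TPM. Both were off in Tnz-1, where PSK2 was listed at 0 and PSKR2 had 0.06 TPM in the dark. The annotation names 4 genes for arrest of embryo development: emb2191, MEE22, EMB2261 and EMB3006, at 5.04 to 27.3 TPM in Ws-2 libraries.

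Some of these genes have a close relative that Tnz-1 did express. A second coding sequence was sought that matched at 80% identity or more, across 50% or more of the gene's own. It was found for 39 of the 183 genes with a coding sequence, and for 9 the identity reached 95%. The share over all genes was not counted. XDH2, a xanthine dehydrogenase of purine breakdown, has the relative XDH1 (92.9% identity), with 11.98 and 20.1 TPM in Tnz-1 against 112 and 124 TPM in Ws-2. NRPB6A, an RNA polymerase subunit, has NRPB6B (90.3% identity), at 39.2 and 29.4 TPM in Tnz-1 and 54.9 and 50.6 TPM in Ws-2. AT5G56670 has AT4G29390 (83.2% identity), at 490 and 431 TPM in Tnz-1 and 278 and 373 TPM in Ws-2.

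Close relatives did not always stay on. The histone genes AT5G59690 and AT5G59970 share 97.1% identity, and AT5G59970 was at 0.78 and 0.66 TPM in Tnz-1 against 56.3 and 83.9 TPM in Ws-2. Among less similar relatives of AT5G59690, AT3G46320 was also off in Tnz-1. AT1G07820 (86.9% identity) was at 249 and 272 TPM there, and AT3G45930, AT1G07660 and AT3G53730 were expressed there too. For AT5G38000 and AT5G37980 (92.4% identity) the levels ran opposite ways. AT5G38000 was off in Tnz-1, while AT5G37980 was at 24.8 and 13.95 TPM there and at 0.72 and 0 TPM in Ws-2. Salmon was among the tools, but its settings for reads shared between such copies are not given in the sources used here. This makes the levels of these 39 genes uncertain. The strand setting of the quantification is not given either, and 56 of the 198 annotated genes overlap a gene on the other strand. Their levels can be uncertain too, though the overlap was as small as 0.288% of the gene for AT5G17660. The share of all genes with such an overlap was not counted.

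To ask how often the off state of Tnz-1 appears in the RILs, each line was scored for each gene. A line was off when both libraries were at 0.1 TPM or less and on when both were at 1 TPM or more. It was discordant when 1 library was off and the other on, and in between otherwise. Of 13065 combinations of a line and a gene, 2581 (19.8%) were off and 9625 (73.7%) on. A further 220 (1.68%) were discordant and 639 (4.89%) in between. Of the off combinations, 94.3% were listed at 0 in both libraries.

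The off state returned in at least 1 line for 193 of the 201 genes (96.0%), against 3.47% of all genes on in Ws-2. It was found in 5 or more lines for 170 genes (84.6%), against 2.41% of genes on in Ws-2. That background includes the set, which made up 53.6% of its 317 genes with 5 or more off lines. Choosing genes off in 1 parent also sets part of this contrast. A gene was off in a median of 14 of 65 lines (21.5%), with quartiles at 9 and 18 lines and a range from 0 to 31. The genes of the opposite set were off in a median of 35.5 lines (54.6%).

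**Figure D1:**
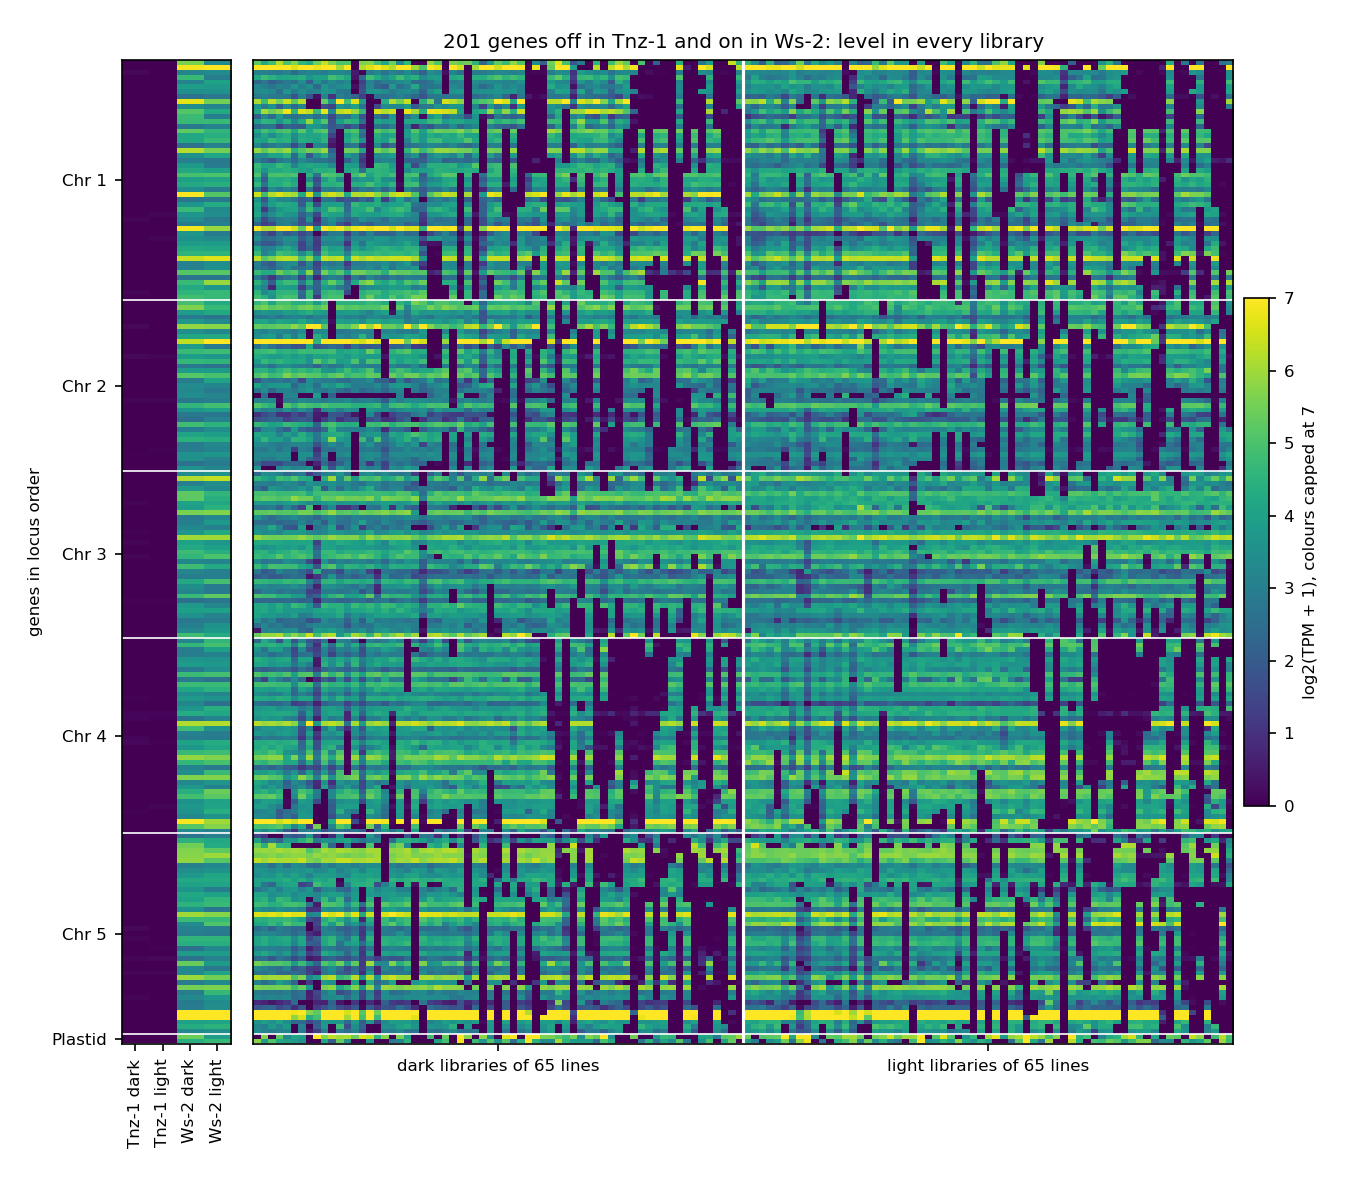
Level of each of the 201 genes (rows, in locus order within chromosomes) in the 4 parental libraries (left) and in the dark and light libraries of 65 lines (right), as log2(TPM + 1) with colours capped at 7. Lines run in the same order in both blocks, from the line with 0 genes off to the line with 109, and the darkest cells form stretches along chromosomes that recur in both libraries of a line.

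By these limits lines fell into an off and an on group with few or no lines in between in 4 examples. MED21, a subunit of the Mediator complex that links transcription factors to RNA polymerase, was off in 18 lines and on in 47. In the 47 lines it ran from 6.60 to 41.9 TPM in the dark (median 30.6) and from 5.39 to 33.96 TPM in the light (median 22.9), near the Ws-2 values of 26.4 and 28.9 TPM. No line lay between these groups.

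PSKR2 was off in 14 lines, on in 50 and in between in 1. In the lines where it was on, it ran from 1.5 to 12.5 TPM in the dark (median 8.58) and from 2.08 to 14.1 TPM in the light (median 11.1). Its ligand gene PSK2, on another chromosome, was off in 14 lines, the median count of the set, and on in 51. Whether PSK2 and PSKR2 were off in the same lines is not given here. Where on, PSK2 was at 1.92 to 20.9 TPM in the dark and 2.70 to 17.4 TPM in the light. MT1C was off in 16 lines (24.6%, Wilson 95% interval 15.8 to 36.3), on in 47 and in between in 2. Where on, it ran from 14.3 to 219 TPM in the dark and from 22.2 to 312 TPM in the light.

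Not every gene split so cleanly. PGRL1B, which acts in cyclic electron flow around photosystem I, was off in 2 lines, on in 46 and in between in 16, and its Tnz-1 values of 0.09 and 0.07 TPM were themselves above 0. The relative PGR5-LIKE A (84.2% identity) was expressed in both parents, at 172 and 220 TPM in Tnz-1 and 380 and 442 TPM in Ws-2. Lines in between were most frequent for AT5G55450, a lipid-transfer family gene, with 24, and AT5G24840, a tRNA methyltransferase gene, with 20. In all, 8 genes had 15 or more lines in between.

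**Figure D2:**
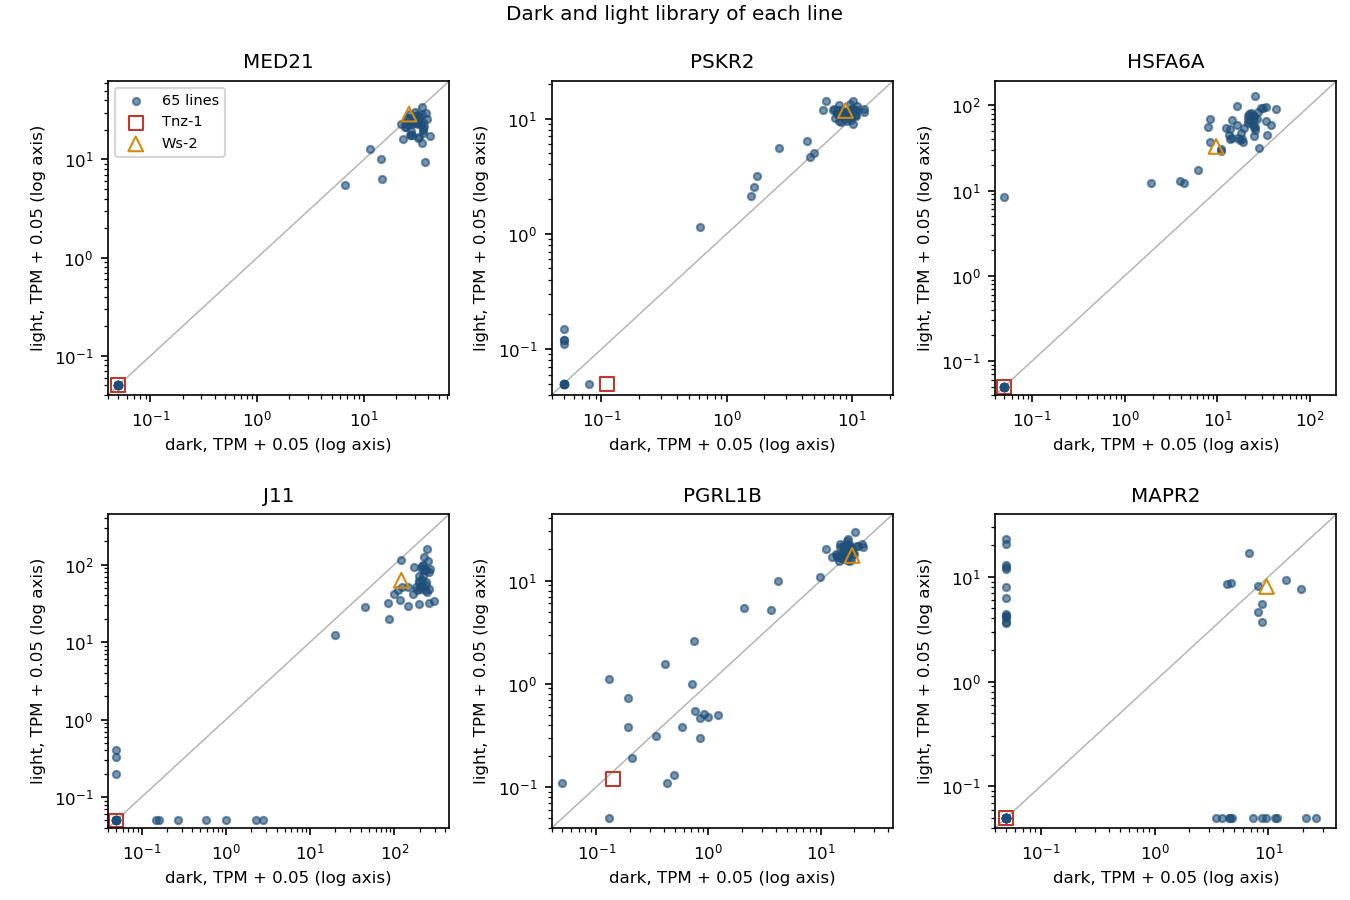
TPM + 0.05 of 6 genes, chosen after their values were seen, in the dark library (horizontal, log axis) and the light library (vertical, log axis) of each of 65 lines (dots) and of Tnz-1 (square) and Ws-2 (triangle). MED21 and PSKR2 split into an off and an on group, HSFA6A lies above and J11 below the diagonal, PGRL1B has lines along the diagonal between its groups, and MAPR2 has 25 lines off in 1 library and on in the other.

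Where the genes were on, the lines lay near the level of Ws-2. The Ws-2 mean lay within the range of the on lines for 197 of the 201 genes. The median of the on lines was a median of 0.961 times the Ws-2 mean, with quartiles at 0.844 and 1.06. It was under 0.5 times for 6 genes and over 2 times for 0. AT1G21550, a calcium-binding EF-hand gene, had the lowest ratio, at 0.272: Ws-2 had 26.1 and 6.91 TPM, while the on lines had medians of 5.40 TPM in the dark and 2.98 TPM in the light.

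The share of off lines differed between chromosomes. The median was 16 off lines for the 49 genes of chromosome 1, 15 for the 35 of chromosome 2, 16 for the 40 of chromosome 4 and 15 for the 41 of chromosome 5. It was 3 for the 34 genes of chromosome 3. A stretch of 25 genes there, from AT3G05727 to AT3G46320, was marked off after the values were seen, as the run of genes off in at most 6 lines, and its median was 2 off lines. The other 9 genes of the chromosome were off in 4 to 13 lines, a contrast that the choice of the stretch sets in part.

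Of the 8 genes that were off in no line, 6 lie in that stretch of chromosome 3. They include AT3G11600, AT3G22210, NUC-L2, which encodes a nucleolin of ribosome formation, and AT3G22104, of the NPH3 family. AT3G22210 was at 30.2 to 94.7 TPM in the dark and 34.8 to 118 TPM in the light over all 65 lines, while it was listed at 0 in both Tnz-1 libraries. An off count of 0 in 65 lines has a Wilson 95% interval reaching 5.58%. AT1G70880, a polyketide cyclase family gene, was also off in no line, but was in between in 15 lines and on in 48.

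**Figure D3:**
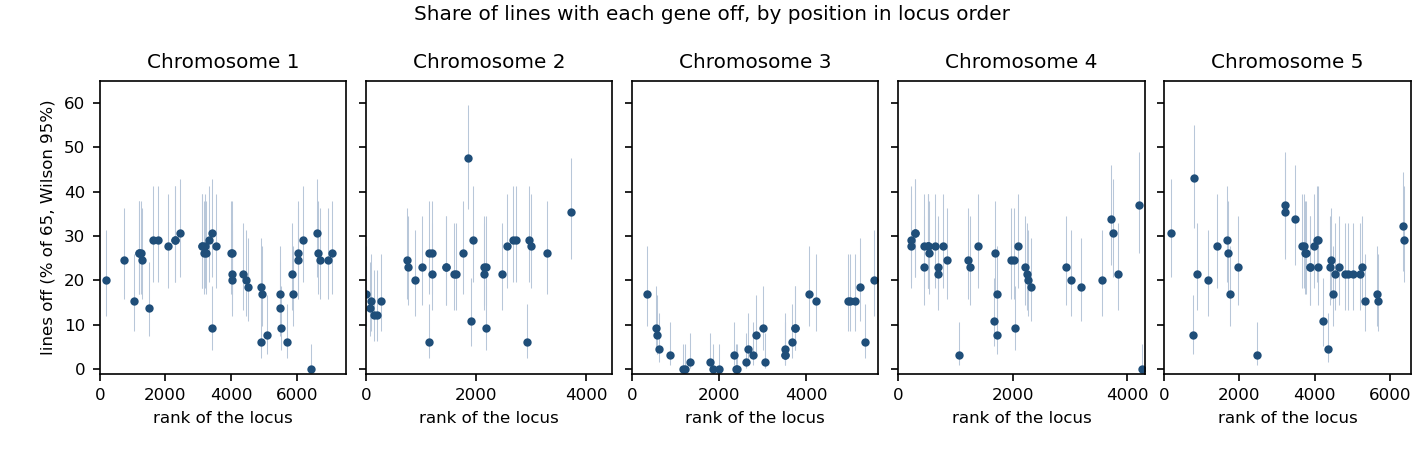
Percent of the 65 lines in which each gene of chromosomes 1 to 5 was off (vertical, with Wilson 95% intervals) by the rank of its locus on the chromosome (horizontal). Shares lie near 25% along much of chromosomes 1, 2, 4 and 5 and stay low over the middle of chromosome 3, where 25 genes were off in 0 to 6 lines.

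At the upper end stood MAPR2, a membrane-associated progesterone-binding protein gene, off in 31 lines (47.7%, Wilson 95% interval 36.02 to 59.6), and MIR834, off in 28 (43.1%, 31.8 to 55.2). Both had many discordant lines, described below with the agreement of libraries. AT4G39300 was off in 24 lines (36.9%, 26.2 to 49.1), on in 40 and discordant in none, at 1.18 to 53.0 TPM in the dark and 3.95 to 62.3 TPM in the light where it was on.

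The lines differed widely in how many of the genes they had off. The count ran from 0 of 201 in line 4 to 109 (54.2%) in line 68, with a median of 39 (19.4%). Some lines had nearly the same set of states. Over 299 nuclear genes of the present and the opposite set, 10 of 2080 pairs of lines had equal states at 97% or more, with a median of 63.98% over all pairs, where a pair was compared over the genes called off or on in both lines. Lines 48 and 58 were equal at all 235 genes called in both, though 12 and 22 genes of the set were in between in them. Such lines are not independent, and results without 1 line of each such pair are given with the alternatives.

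Levels between off and fully on also gathered in particular lines. By limits set after the values were seen, a gene was called reduced in a line when its mean was above 0.1 TPM and under 50% of its median over the on lines. This held for 1294 of 12935 combinations of a line and a nuclear gene. The median line had 13 reduced genes, whereas line 47 had 117 of 199, line 31 had 77 and line 35 had 62. The 10 lines with at least 30 reduced genes held 43.0% of all such combinations. Among 661 pairs of adjacent genes with at least 1 reduced in these lines, both were reduced in 430 (65.1%), and in 324 of 538 (60.2%) without line 47. By line the share ran from 18.9% in line 52 to 86.2% in line 47. It was 188 of 1238 pairs (15.2%) in the other 55 lines, but the 10 lines were picked for many reduced genes, which raises their share, and no test was made.

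Neighbouring genes shared their states. Taking runs of genes that follow each other within 5 table loci, 36 of the 201 genes (17.9%) fell into 17 clusters, 15 pairs and 2 triples. No such share was counted for other genes, so 17.9% is a description and does not show that the set is clustered. In all 17 clusters the members had the same state in each line where all were called off or on, 1001 of 1001 line calls.

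The triple on chromosome 1 joins DPMS3, a subunit of dolichol-phosphate mannose synthase, AT1G48160, a signal recognition particle gene, and emb2191, of the cytidine deaminase family. It was called throughout in 57 lines, with all 3 genes off in 10 and all on in 47. The triple on chromosome 4 joins AT4G04750, a sugar-transporter-like gene of the major facilitator family, MED21 and MSRB4, which repairs oxidised methionine. It was off in 18 and on in 44 of 62 lines. The pair AT1G62480 and AT1G62500 was off in 9 and on in 47 of 56 lines.

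Other pairs, named after their values were seen, join genes of related or unrelated roles. MEKK3 and MAPKKK9, adjacent kinase genes of the MAP kinase cascade, shared their state in all 62 lines called. GAS41, a YEATS-domain chromatin protein, and SUV2, of the DNA damage response, did so in 60 lines. TAS1A, a precursor of trans-acting small RNAs, and AT2G27402 did so in 53. AT2G18910 and the non-coding AT2G18917 did so in 61 lines, and they flank LKP2, a blue-light receptor of the clock, which AT2G18917 overlaps on the other strand and whose TPM was 4.83 and 5.33 in Tnz-1 against 25.8 and 20.2 in Ws-2.

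Sharing fell with distance along the chromosome. The median share of lines in the same state was 100% for the 20 pairs of genes 1 to 5 loci apart and 100% for the 70 pairs 6 to 50 loci apart. It was 96.9% at 51 to 200 loci, 92.5% at 201 to 500, 86.2% at 501 to 1000 and 78.3% at 1001 to 2000. Beyond that it was 67.2%, next to 69.2% for the 15769 pairs on different chromosomes. The pairs share lines and genes, so no test is given.

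**Figure D4:**
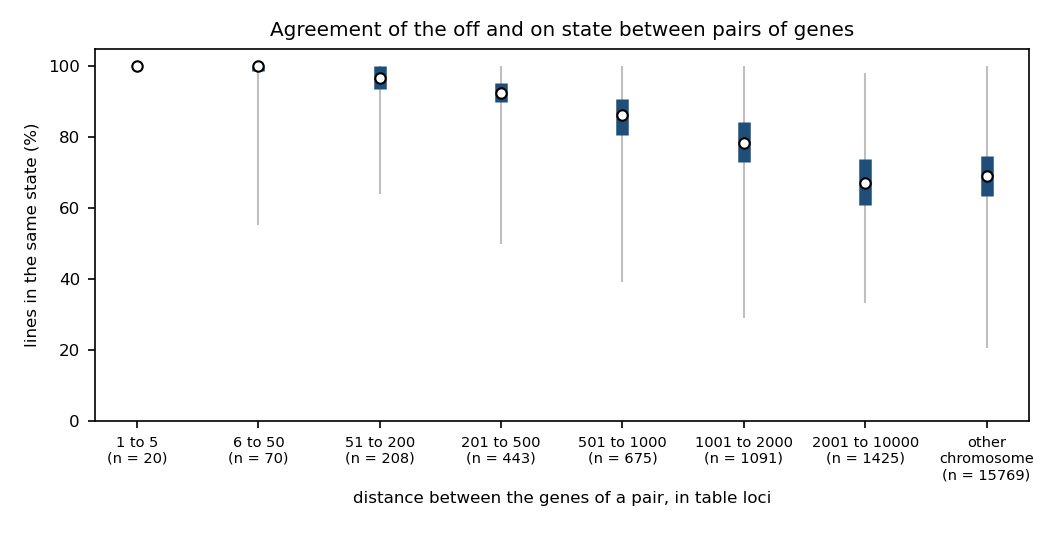
Percent of lines in which both genes of a pair had the same off or on state (vertical), by the distance of the pair in table loci (horizontal, with the number of pairs). Dots are medians, thick bars the quartiles and thin lines the full range; the median falls from 100% for the nearest pairs to 67.2% beyond 2000 loci, near the 69.2% of pairs on different chromosomes.

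Most of the loci next to these genes that Ws-2 expressed were expressed in Tnz-1 as well. The 201 genes had 398 next neighbours in locus order, of which 185 were on in both Ws-2 libraries and 10 of these belonged to the set. Of the other 175 neighbours, 111 (63.4%) were also at 5 TPM or more in both Tnz-1 libraries, against 87.3% of the 12926 genes on in Ws-2 outside the set. A further 9 of the 175 were at 0.5 TPM or less in both Tnz-1 libraries. Within the clusters, 30 other loci lay between the genes, and 14 of them were on in Ws-2, 6 of these also in Tnz-1. Whether a listed 0 marks an absent transcript or reads that do not match the reference transcript was not tested.

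Each line's dark and light libraries were separate samples, and their states mostly coincided. For 152 genes no line was discordant. A discordant line occurred for 49 genes (24.4%), against 3.08% of all genes on in Ws-2, most of which were never off. Of the 220 discordant combinations, 118 were off in the dark and on in the light, and 102 the reverse.

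These combinations gathered in few genes, since 9 genes with more than 5 discordant lines held 160 of the 220. ATCG00580 and ATCG00820, chloroplast-encoded by their locus names, had 26 each, with light levels up to 1231 TPM and 592 TPM and values of 0 in other lines. MAPR2 had 25 discordant lines, 13 off in the dark alone and 12 off in the light alone, and was on in both libraries in 9 lines, at 4.31 to 19.4 TPM in the dark and 3.61 to 16.7 TPM in the light. MIR834 had 23, with 11 off in the dark alone and 12 in the light alone. AT5G02690 followed with 17 and AT3G21680 with 14, both of unknown function.

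Discordance in AT1G02710, a glycine-rich protein gene, and in AT4G39838, a non-coding RNA, leaned to 1 side. Of the 13 discordant lines of AT1G02710, 11 were off in the light and on in the dark. All 9 discordant lines of AT4G39838 were off in the dark and on in the light. Both genes were called in the light test below, which uses the same values and so is no separate evidence.

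Levels were also compared between the libraries of each line, with silent lines included. An effect of the line was called for 195 of the 201 genes (97.01%) by limma's moderated F-test with treatment in the model and a Benjamini-Hochberg adjusted p under 0.05, against 83.9% of the 18111 genes tested. The intraclass correlation, the share of the spread that lies between lines rather than between the 2 libraries of a line, had a median of 0.957, against 0.490 for all genes tested. It was above 0.8 for 178 genes (88.6%), against 19.9% of genes tested. AT1G67350 had the highest, at 0.997, and was off in 16 lines and on in 47, at 13.04 to 121 TPM in the dark and 14.4 to 109 TPM in the light. Both measures take in the split into off and on lines. They therefore restate the states in part and cannot show separately that levels repeat among on lines. For genes on in every line, the intraclass correlation ran from 0.166 (AT3G17350) to 0.774 (AT3G11600).

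The line effect was not called for 6 genes: MAPR2, AT3G12965, AT3G17350, AT3G21680, ATCG00580 and ATCG00820. AT3G17350, annotated as a wall-associated receptor kinase, was on in all 65 lines. AT5G56670, with the highest level in the set, was off in 10 lines and on in 50, with an intraclass correlation of 0.983. PAR2, a phytochrome-regulated growth repressor, was off in 10 lines, on in 51 and in between in 4, at 2.30 to 16.0 TPM in the dark and 1.46 to 11.4 TPM in the light where it was on.

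The light comparison asked how the genes respond in lines that can express them. For each gene in the table, lines with a mean of at least 1 TPM over both libraries entered, which left 34 to 65 lines per gene of the set, with a median of 48. Changes are given on the log2(TPM + 1) scale, light minus dark, which understates changes of low genes. A gene was called with limma at a Benjamini-Hochberg adjusted p under 0.05 over 18088 genes and an absolute log2 change of at least 1.

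In extended light, 5 genes rose and 7 fell among the 201 (12 called, 5.97%), against 6.09% of all genes tested, 2.99% higher and 3.10% lower. The set thus held light-changed genes at about the share of the table. Without the limit on the size of the change and without the line as a block, 97 genes (48.3%) passed, against 64.4% of all genes. Each gene was tested only in the lines that express it, and why the shares differ was not tested. With the line as a block, the fit called the same 12 genes, against 6.08% of all genes tested, and 146 genes (72.6%) passed by adjusted p alone, against 76.7%. The median change was 0.06 for the set and 0.06 for all genes tested.

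HSFA6A, a heat stress transcription factor, rose in all 50 expressing lines. It was at 19.8 ± 9.41 TPM (SD, n = 50) in the dark and 56.8 ± 24.99 TPM (SD, n = 50) in the light, a log2 change of 1.53 (SE 0.18). The limma adjusted p was 7.13e-13, and Ws-2 moved the same way, from 9.61 to 32.9 TPM. AT1G11700, a senescence regulator family gene, rose in 46 of 47 lines, from 7.91 ± 3.48 to 20.1 ± 6.64 TPM (SD, n = 47), with a log2 change of 1.26 (SE 0.13). AT4G21650, a subtilase protease gene, rose in 46 of 48 lines, from 20.4 ± 12.7 to 41.6 ± 19.2 TPM (SD, n = 48), with a log2 change of 1.01 (SE 0.20).

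The other genes that rose were non-coding RNAs whose intraclass correlations were low, at 0.0851 for AT3G12965 and 0.238 for AT4G39838. AT3G12965 was higher in 56 of 64 lines, from 5.36 ± 4.81 to 16.1 ± 10.1 TPM (SD, n = 64), with a log2 change of 1.53. AT4G39838 was higher in 52 of 63 lines, from 6.74 ± 4.82 to 14.5 ± 8.47 TPM (SD, n = 63), with a log2 change of 1.14. In Ws-2 AT4G39838 was at 9.22 TPM in the dark and 7.67 TPM in the light, and it was the only one of the 12 whose direction in Ws-2 differed from that in the lines. It overlaps a gene on the other strand over 94.8% of its length.

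TIR, a small Toll/interleukin-1 receptor-like immune gene, lay just under the limit, with a log2 change of 0.998 and higher values in 43 of 45 lines. Its limma adjusted p was 3.57e-06.

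Among the genes that fell, J11 was lower in all 44 expressing lines, at 181 ± 73.2 TPM (SD, n = 44) in the dark and 59.9 ± 32.9 TPM (SD, n = 44) in the light. Its log2 change was -1.63 (SE 0.30), with a limma adjusted p of 1.06e-06. XTH8, a xyloglucan endotransglucosylase of the cell wall, was lower in all 47 lines, from 20.3 ± 7.15 to 8.07 ± 3.37 TPM (SD, n = 47), with a log2 change of -1.24 (SE 0.14). AT1G32928, annotated as an Avr9/Cf-9 rapidly elicited protein, was lower in 44 of 45 lines, from 17.2 ± 6.94 to 5.68 ± 1.99 TPM (SD, n = 45), with a log2 change of -1.38.

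AT1G02710 had the largest fall, -1.74 (SE 0.31), but was lower in only 43 of 52 lines, from 32.4 ± 22.4 to 11.8 ± 13.1 TPM (SD, n = 52). An identical coding sequence exists for it at an overlapping locus. AT5G48490 was lower in 47 of 49 lines, with a log2 change of -1.16, and AT1G19530 in 38 of 46 lines, with -1.08. AT3G11600, on in every line, was lower in all 65, from 41.8 ± 11.3 to 18.8 ± 4.48 TPM (SD, n = 65), with a log2 change of -1.10 (SE 0.07).

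Of the 12 called genes, 8 moved the same way in at least 90% of their expressing lines, and 11 had the direction of Ws-2. Genes of the set described above for their states had smaller changes in the light. MED21 had a log2 change of -0.44 (limma adjusted p = 5.40e-05) and was lower in 42 of 47 lines. PSKR2 had a change of 0.31 (limma adjusted p = 0.00706) and was higher in 44 of 50. PSK2, at -0.10, did not pass (limma adjusted p = 0.454), and PAR2 had a change of -0.52 (limma adjusted p = 2.39e-05), lower in 40 of 53 lines.

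**Figure D5:**
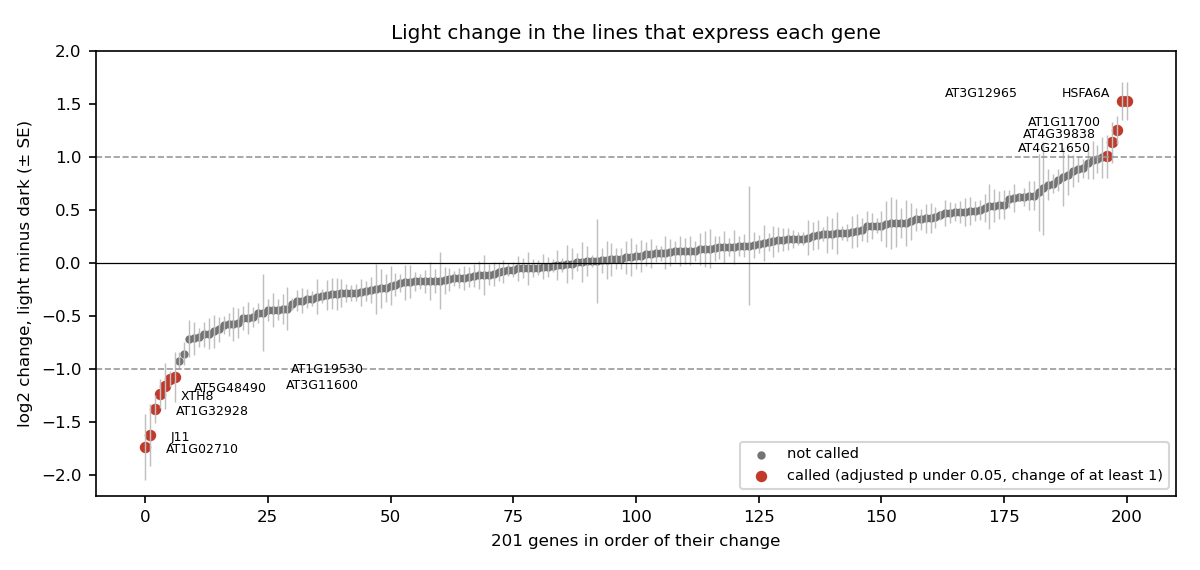
Log2 change in extended light of the 201 genes in rising order (horizontal), each over the lines that express it. Changes are light minus dark on the log2(TPM + 1) scale. Bars are the standard error of the fit without the line as a block, and dashed lines mark changes of 1 and -1. The 12 called genes are labelled, 5 above and 7 below, and most genes lie near the median of 0.06.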

How the data were processed

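The authors deposited 1 table of TPM for 28775 genes in 134 libraries. Each deposited TPM column summed to the same total within rounding, so depth and counting precision are unknown. Per the submitters' processing notes, cutadapt 3.4 and Salmon 1.6.0 were among the tools and TAIR10 was the build. Names came from the TAIR10.1 annotation by locus, so no coordinates or sequences are printed. Coding-sequence copies were sought with blastn 2.17.0.

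Tests used limma 3.58.1 in R 4.3.3 on log2(TPM + 1), with eBayes trended on the mean and p-values adjusted by Benjamini-Hochberg over all genes with a mean of at least 1 TPM. The light test also required at least 10 expressing lines. The genes, classes and tests were chosen with earlier results of these data known. Genes were named by rank within the set (Ws-2 level, class, cluster, light change, off and discordant lines, limits). Others are marked as chosen after their values were seen or serve as comparison.

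Both libraries of a line carry its number. Their deviations from the group means correlated at 0.493 to 0.888 (median 0.773), against a median of -0.02 between lines, so the numbers pair the libraries. The fit with the line as a block called the same 12 genes in the light. Nothing in the labels says that lines were grown more than 1 time, so lines are the units of the light test. For single genes, SEs and p-values of light changes come from the fit without the block unless stated. Their error mixes in differences in level between lines and does not measure how the change itself varies. For J11 the SE was 0.30 without and 0.09 with the block. On simulated data with 200 genes changed by 1.5 on the log2 scale, the light test recovered 194 with 1 false call among 18094 genes. With the block it recovered 195 with 0 false calls. Simulated expressing lines shared the same mean for a gene, unlike the real lines. The run therefore cannot show how the fit without the block handles differences between lines, nor compare the fits on that point. The line test recovered 200 with 9 false calls among 17864 genes.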

Additional observations from a re-analysis of the deposited data

How the results depend on the processing

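In the light comparison, 12 genes were called without and 12 with a replicate block for the line. It was 5 genes when all 65 lines entered, silent ones included, 6 with all 65 lines and the replicate block, and 51 with a limit of 0.5 on the absolute log2 change. The count lay between 11 and 18 with an expressing limit of 5 TPM, a pseudocount of 0.1, median-of-ratios scaling, no filter on the mean, or 1 line of each near-identical pair left out. Under median-of-ratios scaling AT4G21650 fell under the limit, at 0.97. With all 65 lines 7 of the 12 genes were no longer called. For AT1G11700, AT4G21650, AT1G32928, XTH8, AT5G48490 and AT1G19530 the change fell under the limit, as silent lines add changes near 0. J11 kept a change of -1.12 but had a limma adjusted p of 0.0736, and 1.14e-14 with the replicate block, which called it. None of the named genes reversed under these alternatives. In the expressing lines the replicate block changed none of the 12 calls.

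The line effect was called for 194 or 195 genes, the median off share lay between 21.5% and 26.2%, and 191 to 195 genes were off in at least 1 line under the alternatives run. With an on limit of 5 TPM, discordant combinations fell to 146. Clustered genes numbered 10 with a step of 1 locus and 64 with a step of at most 20. The set would hold 371 genes with a Tnz-1 limit of 0.5 TPM, 350 with a Ws-2 limit of 2 TPM and 111 with a Ws-2 limit of 10 TPM. The off share of 5 named genes moved by more than its interval under an alternative, as for AT1G10320, off in 15.4% of lines, 1.54% when only listed zeros count and 26.2% with a limit of 0.5 TPM. Depth is unknown, so a TPM near 0.1 cannot be told from 0.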
